A study of Mus musculus with 24 samples.

Results

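7 genes of the mouse 2-cell programme were examined here across embryonic stem cells, epiblast stem cells and early embryonic tissue: Zscan4c, Zscan4d and Zscan4f, Tcstv1 and Tcstv3, Zfp352 and Arg2. They were chosen by name, and every array probe whose RefSeq accession belonged to 1 of them was used. Of the 7 genes, 6 had at least 1 probe and together they had 9 probes, out of 55681 non-control probes on the array, of which 27235 could be named and covered 20660 genes. Zscan4c had 3 probes, Zfp352 had 2, and Zscan4f, Tcstv1, Tcstv3 and Arg2 had 1 each. No probe was named Zscan4d.

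The samples were 24 single-colour Agilent arrays, 2 for each of 12 groups. Mouse embryonic stem cells (mESCs), lines of the naive pluripotent state of the blastocyst, were J1 and R1 in conventional medium and J1 in 2i, a medium with a pair of kinase inhibitors that holds mESCs in that state. Epiblast stem cells (EpiSCs), lines of the primed state of the epiblast after implantation, were Wt1 and 129C1, established by the original protocol, 129C1 treated with IWP2, an inhibitor of Wnt ligand secretion, and 129Ba1, 129Ba2 and BNa17, established with a Wnt inhibitor. Embryonic tissue was hand-dissected epiblast of embryonic day 5.5 (E5.5) and 6.5 (E6.5) and ectoderm of day 7.5 (E7.5). The lines were grown on feeder layers and separated from them before RNA extraction. The labels do not say whether the 2 arrays of a group came from separate cultures or dissections. In comparisons of groups, p-values therefore measure only the spread between replicate arrays, pooled over the 12 groups, which may be technical. For mESC against EpiSC lines and Wnt inhibitor against original-protocol lines, they measure the spread between line means.

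The 2-cell embryo is the stage at which the mouse zygotic genome is broadly switched on, and a set of genes is transcribed there in a short burst. Zscan4 proteins carry a SCAN domain and zinc fingers and are known for telomere maintenance in mESCs. In mESC culture only a few cells at a time pass through a transient 2-cell-like state in which Zscan4, Tcstv and related genes are on, so an array of a whole culture reads an average over cells. In such bulk samples fewer cells in the state and less RNA per cell cannot be told apart. The Zscan4 genes are a cluster of near-identical copies, as are Tcstv1 and Tcstv3, and a probe for one copy may also bind transcripts of another. Values below are therefore given by probe, and the assignment to a single copy is uncertain.

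The likeness of the copies is visible in the stretch before their annotated starts. RefSeq promoter sequences (GRCm38.p6) were found for 4 of the 7 genes, and the 250 bases before the start of the Zscan4 members are shown to let the copies be compared; Zscan4d is among them although no probe was named for it. Capitals mark the motifs TATAAA and CCAAT, searched on both strands with no overlap between them. Zscan4c lies at chr7:11005495-11005744 on the plus strand, Zscan4d at chr7:11166149-11166398 on the minus strand and Zscan4f at chr7:11397665-11397914 on the plus strand, each printed 5′ to 3′ along the gene.
Zscan4c: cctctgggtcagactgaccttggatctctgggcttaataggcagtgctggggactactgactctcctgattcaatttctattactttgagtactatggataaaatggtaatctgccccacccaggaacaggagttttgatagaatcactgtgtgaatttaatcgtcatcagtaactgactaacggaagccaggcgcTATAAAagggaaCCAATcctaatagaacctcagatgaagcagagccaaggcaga
Zscan4d: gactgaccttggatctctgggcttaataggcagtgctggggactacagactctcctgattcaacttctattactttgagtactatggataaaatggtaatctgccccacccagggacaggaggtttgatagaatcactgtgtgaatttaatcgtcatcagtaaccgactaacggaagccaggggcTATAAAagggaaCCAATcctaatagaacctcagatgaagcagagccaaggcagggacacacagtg
Zscan4f: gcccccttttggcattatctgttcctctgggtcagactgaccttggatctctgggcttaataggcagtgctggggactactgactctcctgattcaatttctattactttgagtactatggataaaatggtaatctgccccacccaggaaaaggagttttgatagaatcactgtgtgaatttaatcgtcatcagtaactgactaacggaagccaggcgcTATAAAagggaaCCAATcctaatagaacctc

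The annotated starts are shifted against each other by 11 to 34 bases. Once shifted, Zscan4c and Zscan4f were identical at 226 of 227 overlapping bases (99.6%), Zscan4c and Zscan4d at 232 of 239 (97.1%) and Zscan4d and Zscan4f at 209 of 216 (96.8%). Each of the 3 held 1 TATAAA, which begins 54, 65 and 31 bases before the annotated start of Zscan4c, Zscan4d and Zscan4f, and 1 CCAAT shortly after it. Of 32851 RefSeq promoters of the same length, 12.4% held TATAAA on either strand, 33.8% held CCAAT and 4.4% held both. The same window of Zfp352 held neither motif, and its best ungapped match to a Zscan4 window was 35.6%. These matches describe letters and are no evidence of a bound factor.

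Values below are log2 processed signal relative to the array's 75th percentile, so 0 is the level of that percentile and each unit is a doubling. Whether a probe rose above its local background was taken from the scanner software's flag (well above background). Differences came from limma fits over all probes tested, and one was called where its p, adjusted by Benjamini and Hochberg's method, was below 0.05 and its size at least 2-fold; errors are standard errors (SE). The 75th percentile lay between 69.3 and 253 signal units, with BNa17 replicate 1 the dimmest array, and the share of probes well above background was 36.7% at the lowest and 53.2% at the highest. Replicate arrays correlated at r of 0.966 to 0.989. The naive markers went with the labels: all 8 were well above background on both arrays of each mESC group, against 1 to 5 of 8 in the EpiSC groups. All 6 primed markers were so in every group, so that count does not part the groups. Their group medians were 0.26 to 2.41 in mESCs and 3.63 to 4.73 in EpiSCs. Their summed level, however, was higher in J1 (285 to 286 times the 75th percentile) than in the EpiSC line Wt1 (166 to 206 times). Of 12 feeder fibroblast markers, 12 were above background on both arrays of every line group, with a summed level of 62.4 to 106 times the 75th percentile in mESCs and 70.7 to 365 times in EpiSCs. All 7 visceral endoderm markers were above background on both arrays of the tissue labelled E5.5 epiblast and of E6.5 epiblast, against 2 of 7 in E7.5 ectoderm. There were 6 slides and 4 scan days: mESCs and EpiSCs shared no slide, whereas J1 shared a slide with E7.5 ectoderm, and E5.5 with E6.5 epiblast.

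**Figure D1:**
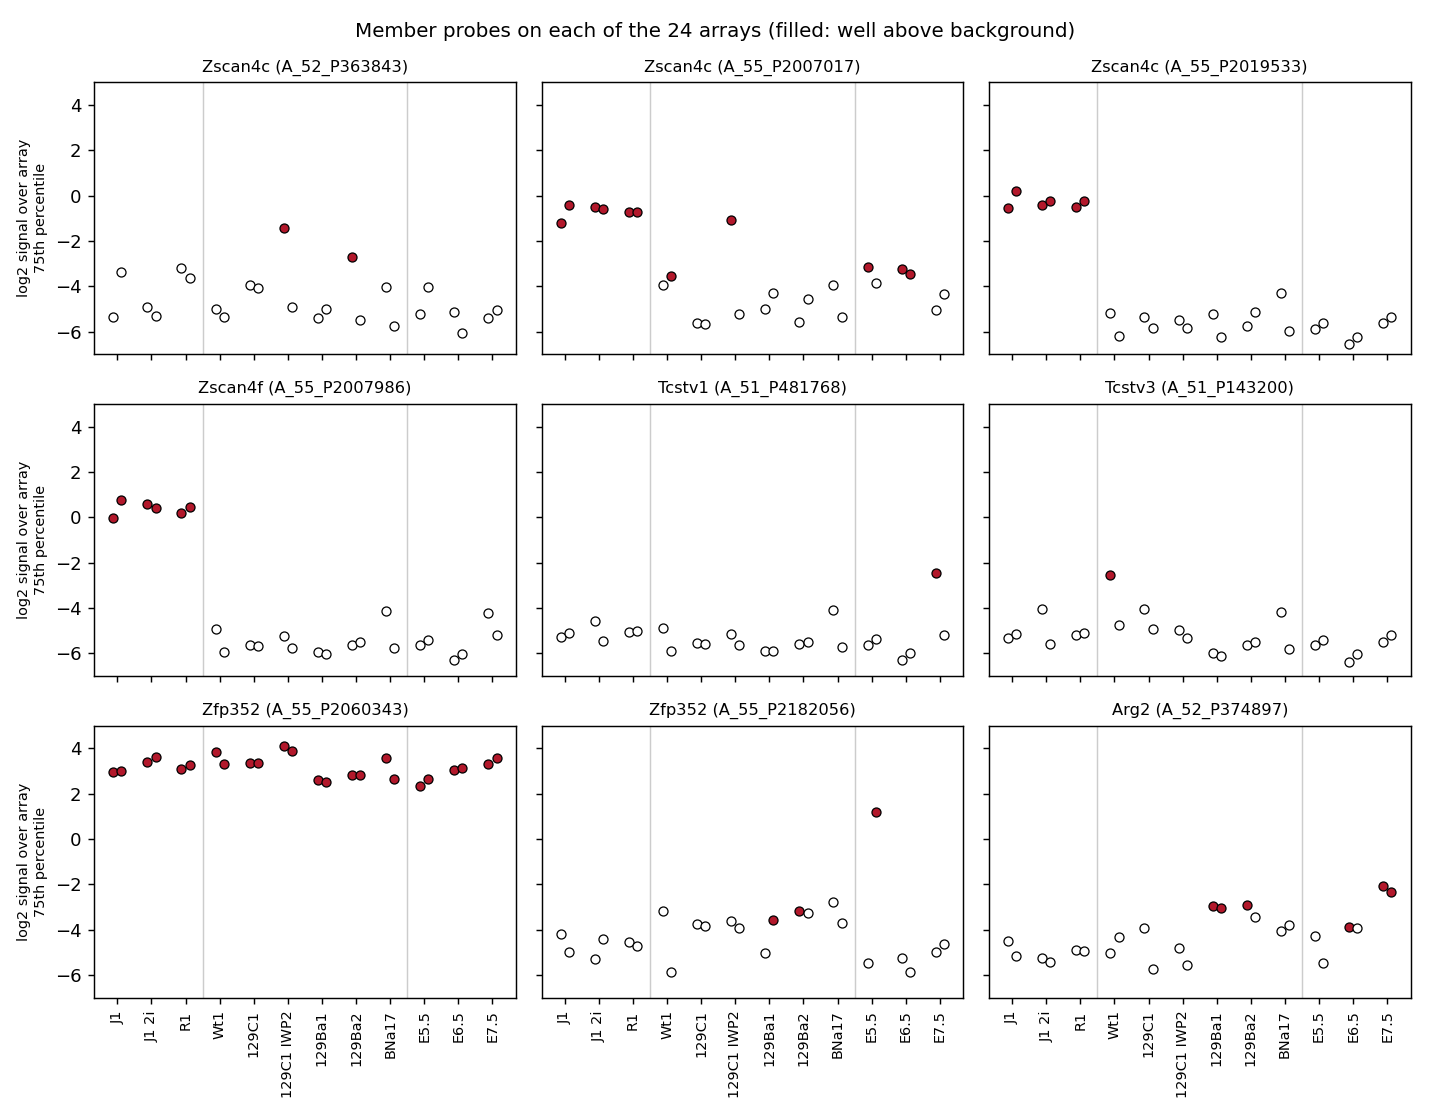
Level of each of the 9 probes on the 24 arrays, as log2 signal over the array's 75th percentile (vertical axis, shared) by group (horizontal axis), with 2 points per group for its 2 arrays; a filled point is well above background and an open point is not. Zscan4f and Zscan4c (A_55_P2019533) are filled on the 6 mESC arrays and on no other, while Zfp352 (A_55_P2060343) is filled on all 24.

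Zscan4 was a feature of the mESC groups. The Zscan4f probe (A_55_P2007986) read -0.01 and 0.78 on the J1 arrays, 0.17 and 0.44 on the R1 arrays and 0.60 and 0.39 on the arrays of J1 in 2i. It was well above background on these 6 arrays and on none of the other 18, where it lay between -6.31 and -4.12. On this probe the mESC arrays thus did not overlap with any EpiSC or embryo array. The share of all probes with such a separation of values was not counted.

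One Zscan4c probe (A_55_P2019533) gave the same division. It read -0.55 and 0.20 in J1, -0.49 and -0.25 in R1 and -0.41 and -0.22 in J1 in 2i, and was not well above background on any of the other 18 arrays, where it ran from -6.56 to -4.31. Over all 55681 probes, 174 (0.312%) were well above background on the 6 mESC arrays and on no other array.

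The second Zscan4c probe (A_55_P2007017) was high in mESCs too, but it was also above background on 5 other arrays. It read -1.19 and -0.43 in J1, -0.71 and -0.74 in R1 and -0.48 and -0.59 in J1 in 2i. Among EpiSCs it was above background on Wt1 replicate 2 (-3.54) and on replicate 1 of 129C1 with IWP2 (-1.07), where the other replicate read -5.22 and was not. In the embryo it was above background on both E6.5 arrays (-3.23 and -3.47) and on E5.5 replicate 1 (-3.16), and on neither E7.5 array. The lowest mESC array was thus just below that IWP2 array, so this probe, unlike A_55_P2019533, did not part mESCs from every other array.

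The third Zscan4c probe (A_52_P363843) did not follow the others. It was above background on 2 arrays, replicate 1 of 129C1 with IWP2 (-1.41) and replicate 1 of 129Ba2 (-2.70), and on none of the 6 mESC arrays, where it read -5.34 to -3.20. The 3 probes that carry the accession of this gene therefore disagree, and the array with IWP2 that was bright for one was bright for another.

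Against the EpiSC lines, taken as 2 mESC lines (J1 and R1) against 5 EpiSC lines without IWP2, Zscan4f and the Zscan4c probes A_55_P2019533 and A_55_P2007017 were higher and no member was lower, where 5 of the 9 probes passed the filter on dim probes and, of all probes tested, 11% were called higher and 13.1% lower. That filter asks for both arrays of at least 1 group to be well above background. Zscan4f and these Zscan4c probes all passed it through the mESC groups alone in this fit, so they were bound to be bright there. Zscan4f was higher by 5.85 ± 0.28 (SE, adjusted p = 1.44e-05, limma), which with no EpiSC array above background is at least 14.7-fold. Zscan4c differed by 5.25 ± 0.22 on A_55_P2019533 (adjusted p = 7.87e-06), at least 9.58-fold, and by 3.98 ± 0.45 on A_55_P2007017 (adjusted p = 0.000765), where 1 of 10 EpiSC arrays was above background. Such a bound sets the mean of the bright side against, on each dim array, the larger of the lowest signal called well above background and the probe's own signal. With normexp background correction, which adds an offset of 50 to every signal, the differences were called and smaller: 2.06 for Zscan4f, 1.70 for A_55_P2019533 and 1.18 for A_55_P2007017. Of 5 extraembryonic ectoderm markers tested, 4 were also higher in the mESC lines, where the list summed to 29.7 to 51.4 times the 75th percentile against 0.694 to 12.7 in EpiSC lines; their part was not tested. The mESC and EpiSC arrays lie on different slides, so slide and cell type cannot be told apart here.

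A comparison within a slide was possible between J1 and E7.5 ectoderm. There 3 Zscan4 probes were higher in J1, where 14.3% of all probes tested were called higher and 16.1% lower: Zscan4f by 5.11 ± 0.47 (adjusted p = 5.93e-07, at least 12.7-fold), Zscan4c A_55_P2019533 by 5.30 ± 0.48 (5.62e-07, at least 8.65-fold) and A_55_P2007017 by 3.89 ± 0.89 (0.00238, at least 5.56-fold). With normexp background correction these were 1.94, 1.77 and 1.34, each called. Zscan4f and A_55_P2019533 passed the filter on dim probes through the mESC groups alone, so they were bound to be bright in mESCs. The feeder fibroblast markers moved with this difference, since their summed level was 64.0 to 93.0 times the 75th percentile in J1 and 15.7 to 16.1 times in E7.5 ectoderm; their part in it was not tested.

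E5.5 epiblast was compared with the same J1 and R1 lines, and 3 Zscan4 probes were lower in the epiblast, where 13.7% of all probes tested were called lower and 19.8% higher. Zscan4f differed by -5.88 ± 0.40 (adjusted p = 3.59e-08, at least 14.8-fold) and Zscan4c by -5.47 ± 0.42 on A_55_P2019533 (9.95e-08, at least 9.67-fold). With normexp background correction both were called and the second was -1.65. Both probes passed the filter on dim probes through the mESC groups alone, so they were bound to be bright in mESCs. On A_55_P2007017 Zscan4c differed by -2.75 ± 0.77 (0.00815), with 1 of 2 E5.5 arrays above background; without E5.5 replicate 2 its adjusted p was 0.0793, and with normexp background correction it was -0.89, under 2-fold. The feeder fibroblast markers summed to 7.14 to 7.35 times the 75th percentile in E5.5 epiblast, below every mESC array, and the visceral endoderm markers to 6.75 on one E5.5 array and 77.1 on the other, against 1.35 to 1.53 in J1 and R1; their part in these differences was not tested. The J1 arrays serve in all 3 of these comparisons and the R1 arrays in 2, so they are not independent. E5.5 epiblast shared no slide with J1 or R1, so tissue and slide cannot be told apart.

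Neither the second mESC line nor the 2i medium changed the Zscan4 probes by a called amount. For R1 against J1, 0 of the 5 member probes tested was called, where 0.227% of all probes were called higher and 0.449% lower, and Zscan4f differed by -0.08 ± 0.47 (adjusted p = 0.994). For J1 in 2i against J1, 0 of the 5 tested were called, where 9.02% of all probes were called higher and 6.13% lower: Zscan4f differed by 0.11 ± 0.47 (0.883), Zscan4c A_55_P2019533 by -0.15 ± 0.48 (0.855) and A_55_P2007017 by 0.27 ± 0.89 (0.852). With standard errors of 0.47 to 0.89 for the Zscan4 probes, a 2-fold change could not be detected reliably with 2 arrays each. The J1, R1 and 2i arrays lie on different slides, so neither line nor medium can be told apart from slide.

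**Figure D2:**
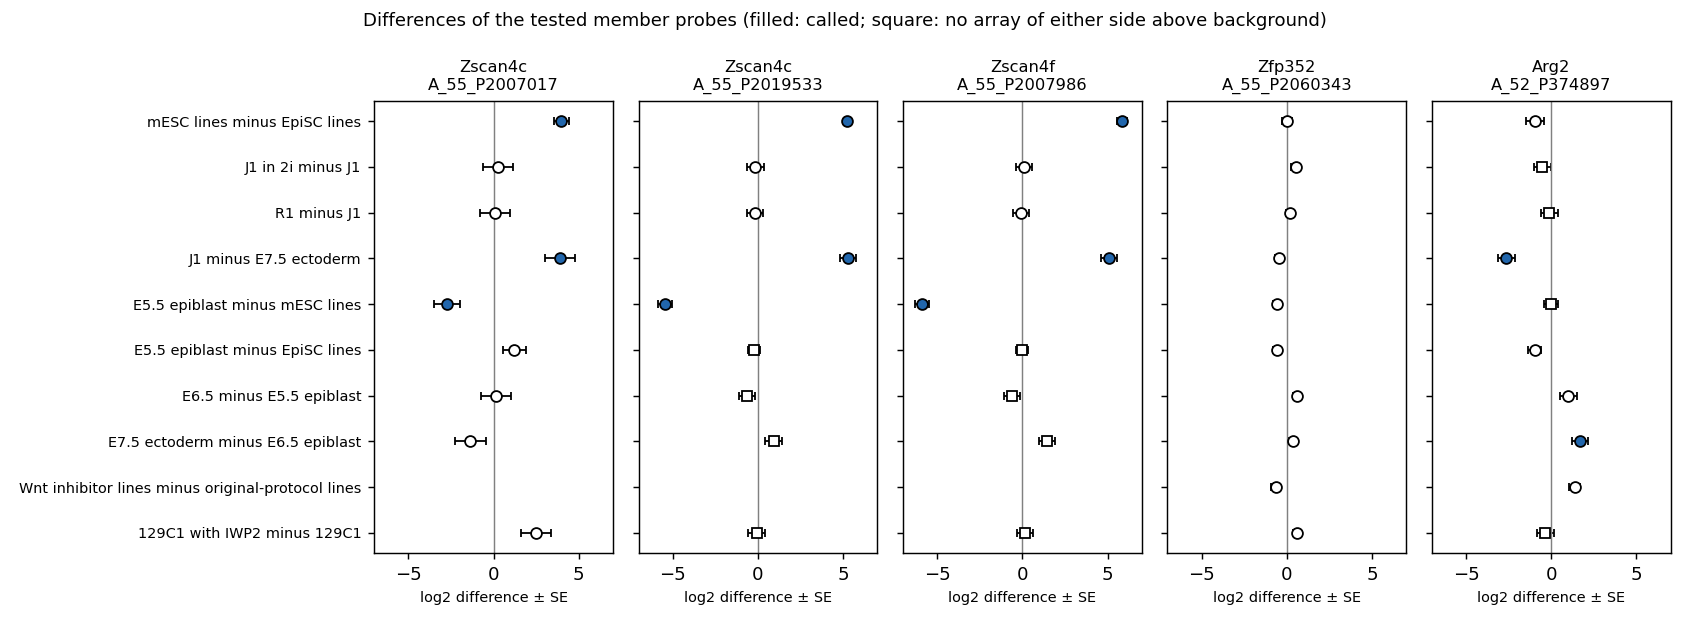
Log2 difference and its standard error (horizontal axis) of the 5 member probes that passed the filter on dim probes, for the 10 comparisons (vertical axis); filled points were called, and squares mark probes with no array above background on either side. The 3 Zscan4 probes stand at 3.98 to 5.85 for mESCs against EpiSCs and near 0 for 2i and R1 against J1.

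The J1 arrays differed from each other in Zscan4. Replicate 2 was higher than replicate 1 by 0.80 for Zscan4f, by 0.75 and 0.76 for the 2 Zscan4c probes and by 0.93 and 0.80 for 2 probes of Zscan4a, a further copy of the family. Over the 22480 probes well above background on both J1 arrays the gap had a median of -0.09 and a standard deviation of 0.35. Among other 2-cell genes, Gm20767 was higher in replicate 2 by 1.21, Gm4340 by 0.87 and AF067061 by 0.85, while Obox6 was at -0.34, Pramel6 at -0.02 and Pramel7 at -0.06. Of the 8 naive markers, Tfcp2l1 was at 0.03 and the others ran from -0.57 (Dppa3) to -0.08 (Klf4). In R1 the gaps of the 5 Zscan4 probes ran from -0.03 to 0.59, and in J1 in 2i from -0.21 to 0.32. Gm4340, Gm20767 and AF067061 were at 0.50, 0.45 and 0.39 in R1, and at -0.37, 0.45 and -0.02 in J1 in 2i. Obox6, Pramel6 and Pramel7 were at -0.19, 0.07 and 0.16 in R1. With 2 arrays in a group, which of them is unusual is not known.

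**Figure D3:**
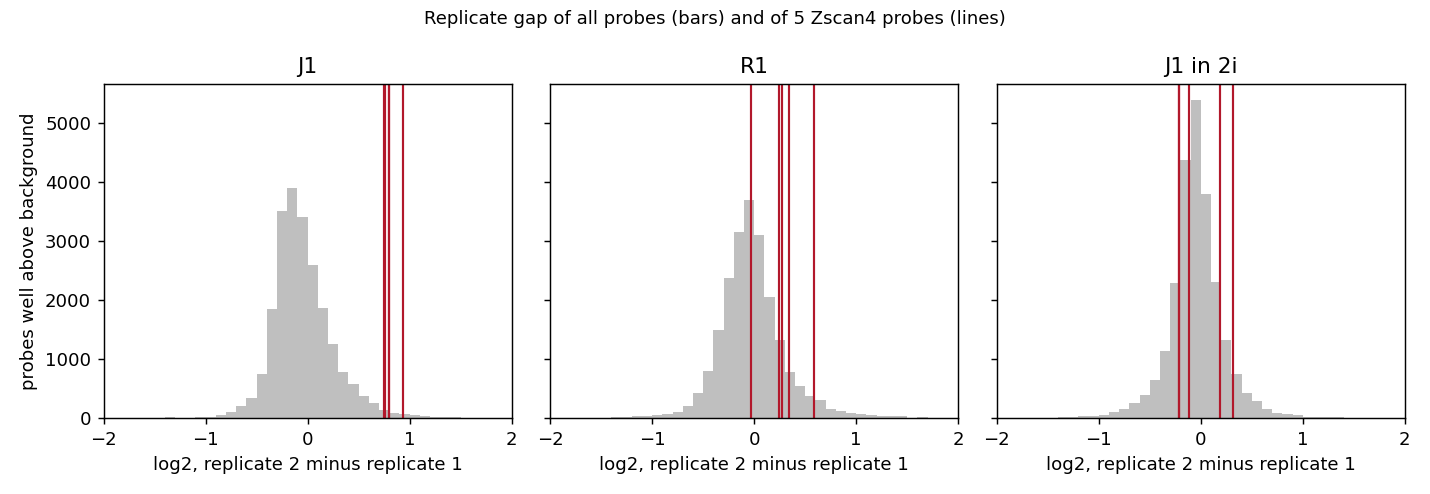
Number of probes (vertical axis, bars) by their log2 gap between the replicate arrays (horizontal axis) in J1, R1 and J1 in 2i, over probes well above background on both arrays, with red lines at the gaps of 5 Zscan4 probes. In J1 the 5 lines stand at 0.75 to 0.93, in R1 at -0.03 to 0.59 and in 2i at -0.21 to 0.32.

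Tcstv1 and Tcstv3, genes named for their transcripts of the 2-cell stage and known from the same 2-cell-like state, were not well above background on any of the 6 mESC arrays. The Tcstv1 probe (A_51_P481768) lay between -5.47 and -4.59 on those arrays and was above background on 1 array of the 24, E7.5 replicate 1 (-2.45), where replicate 2 read -5.19. The Tcstv3 probe (A_51_P143200) lay between -5.60 and -4.06 on the mESC arrays and was above background on Wt1 replicate 1 (-2.56), where replicate 2 read -4.76. Neither passed the filter in any comparison, so neither was tested there, and a level under the background cannot be seen. On the 6 mESC arrays the lowest signal called well above background lay between -3.51 and -2.91 on the same scale. With no filter on dim probes, Tcstv1 was called higher in E7.5 ectoderm than in E6.5 epiblast (2.32 ± 0.67, adjusted p = 0.0351), which rests on the single E7.5 array above background.

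The 2 probes of Zfp352, a zinc finger gene of early embryos, gave opposite pictures. A_55_P2060343 was above background on all 24 arrays, at 770 to 2610 signal units. It read 2.97 and 2.99 in J1, 3.07 and 3.28 in R1, 3.38 and 3.63 in J1 in 2i, and spanned 2.51 to 4.09 in EpiSC groups and 2.33 to 3.58 in the embryo. Its mESC and EpiSC line means were both 3.08, a difference of 0.00 ± 0.30 (adjusted p = 0.998). This probe did not separate the mESC groups from the others.

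The other Zfp352 probe (A_55_P2182056) was above background on 3 arrays only: 129Ba1 replicate 2 (-3.57), 129Ba2 replicate 1 (-3.18) and E5.5 replicate 2 (1.17, 280 signal units), where E5.5 replicate 1 read -5.47. On the 6 mESC arrays it was at -5.30 to -4.20, not well above background. Which of the 2 probes reads the gene's transcript was not tested, since no probe sequence was used here. Against EpiSC lines, the E5.5 level of A_55_P2060343 was lower by 0.60 ± 0.20 on the log2 scale (adjusted p = 0.0196), under the 2-fold minimum.

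Arg2, the mitochondrial arginase that splits arginine into ornithine and urea, was not well above background on the mESC arrays and was so on some EpiSC and embryo arrays. Its probe (A_52_P374897) was above background on both E7.5 arrays (-2.07 and -2.34), both 129Ba1 arrays (-2.96 and -3.05), 129Ba2 replicate 1 (-2.93; replicate 2 at -3.46 was not) and E6.5 replicate 1 (-3.87; replicate 2 at -3.91 was not). It was not above background on any of the 6 mESC arrays, which read from -5.45 to -4.49. Ordered by group mean, E7.5 was highest (-2.20), then 129Ba1 (-3.01), 129Ba2 (-3.20), E6.5 (-3.89) and BNa17 (-3.92). The remaining groups ran from -4.68 to -5.35, and neighbours among them differed by less than the larger of their 2 replicate gaps.

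For Arg2 the mESC lines differed from EpiSC lines by -0.96 ± 0.53 (adjusted p = 0.20), not a called difference. In that fit the Arg2 probe passed the filter on dim probes through 129Ba1 alone, so it was bound to be bright in an EpiSC line. J1 was lower than E7.5 ectoderm on the shared slide by 2.63 ± 0.49 on the log2 scale (adjusted p = 0.00052), at least 2.02-fold; with normexp background correction the difference was -0.57, under 2-fold. Arg2 was the 1 member called lower in that comparison, where 16.1% of all probes tested were called lower and 14.3% higher. Of 4 mesoderm markers, 3 were also lower in J1 and 0 higher (median -2.84). On the scale of the other marker sums, they summed to 2.88 to 3.28 in J1 and 8.09 to 26.5 in E7.5 ectoderm. Of 12 feeder fibroblast markers, 9 were higher in J1 and 0 lower. The part of these markers in the Arg2 difference was not tested.

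Over embryonic development, 0 of 5 member probes tested were called between E5.5 and E6.5 epiblast, where 1.68% of all probes were called higher and 1.69% lower, and Arg2 differed by 1.00 ± 0.49 (adjusted p = 0.315). From E6.5 epiblast to E7.5 ectoderm 2 of 5 member probes passed the thresholds, where 6.35% of all probes were called higher and 10.2% lower. Arg2 was higher in E7.5 by 1.69 ± 0.49 (adjusted p = 0.0219), but leaving out any 1 of the 4 arrays gave an adjusted p of 0.0565 to 0.121, normexp background correction gave 0.72, under 2-fold, and quantile normalization gave an adjusted p of 0.0543. Zscan4f also passed, with 1.44 ± 0.47 (adjusted p = 0.0346), but no array of either stage was above background, so this is no measured change. Zscan4c A_55_P2007017, above background on both E6.5 arrays and neither E7.5 array, differed by -1.35 ± 0.89 (adjusted p = 0.277) and was called lower when only the arrays compared were fitted (± 0.27, adjusted p = 0.0176).

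Markers of other cell types moved between these stages too. All 7 visceral endoderm markers were lower in E7.5, from a summed level of 16.1 to 25.1 times the 75th percentile in E6.5 to 1.30 to 1.84 times, and so were 4 of 4 endoderm markers, from 18.5 to 22.8 times to 1.82 to 2.77 times. Of 12 feeder fibroblast markers 9 were higher in E7.5 and 1 lower, with sums of 6.38 to 6.67 times in E6.5 and 15.7 to 16.1 times in E7.5. Their part in the Arg2 difference was not tested. Stage and slide cannot be told apart here.

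E5.5 epiblast was set against the EpiSC lines, and 0 of 5 member probes tested were called, where 14.6% of all probes were called higher and 13.5% lower. Arg2 was lower in E5.5 by 0.96 ± 0.38 on the log2 scale (adjusted p = 0.0479), just under 2-fold, with 0 of 2 and 3 of 10 arrays above background. It was called with the 75th percentile taken over probes above background on all arrays (-1.09, adjusted p = 0.0253) and without Wt1 replicate 1, 129C1 replicate 2, 129Ba2 replicate 2 or E5.5 replicate 1, where it ran from -1.56 to -1.01. In the same comparison 12 of 12 feeder fibroblast markers were lower in E5.5 (median -5.53) and 6 of 7 visceral endoderm markers higher (median 5.49). The part of these markers was not tested. E5.5 epiblast shared no slide with the EpiSC lines, so tissue and slide cannot be told apart here.

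Among EpiSC lines, the 3 established with a Wnt inhibitor were compared with the 2 of the original protocol, and 0 of 2 member probes tested were called, where 0.315% of all probes were called higher and 0.564% lower. Arg2 was above background on 3 of 6 arrays against 0 of 4 and differed by 1.39 ± 0.32 (adjusted p = 0.14). Its probe passed the filter on dim probes here through 129Ba1 alone, so it was bound to be bright in a Wnt inhibitor line. The 3 arrays above background were of 129Ba1 and 129Ba2, and none was of BNa17. With arrays in place of lines as replicates, Arg2 was called (adjusted p = 0.00484), and likewise against 129C1 alone, which shares their slide (1.46 ± 0.40, adjusted p = 0.0199). Both of these p-values measure the spread between replicate arrays and not that between lines, so they do not bear on how lines of each kind vary. Of 12 feeder fibroblast markers 0 were called in this comparison; their sums were 295 to 365 times the 75th percentile on the 129Ba1 arrays, at most 199 in 129Ba2 and 91.6 to 101 in BNa17, against 72.7 to 241 in the original-protocol lines. All 4 endoderm markers were lower in the Wnt inhibitor lines; their part in the Arg2 difference was not tested. The probes of the Zscan4 members did not pass the filter on dim probes in this comparison. Zfp352 (A_55_P2060343) differed by -0.65 ± 0.25 (adjusted p = 0.287).

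Treatment of 129C1 with IWP2 changed 0 of 5 member probes tested by a called amount, where 0.982% of all probes were called higher and 1.52% lower. Zscan4c A_55_P2007017 differed by 2.49 ± 0.89 (adjusted p = 0.181), which rested on replicate 1 of the treated cells; without treated replicate 2 it was 4.57 (adjusted p = 0.000534). Zscan4f differed by 0.14 ± 0.47 and was above background on none of the 4 arrays. Zfp352 differed by 0.61 ± 0.25 (adjusted p = 0.258). The treated arrays and the 129C1 arrays lie on different slides, so treatment and slide cannot be told apart.

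Other genes of the 2-cell programme were read from a list of 48, of which 32 had a probe; each gene was taken by the probe with the highest mean. Of the 17 that passed the filter in the comparison of mESC with EpiSC lines, 9 were higher and 0 lower, where 11% and 13.1% of all probes tested were; the median difference was 1.15 against -0.08 over all probes. Of the 17, at least Zscan4a, Gm20767, Gm2022, Pramel7, Obox6, AF067061, Pramel6 and Gm4340 passed the filter through the mESC groups alone. These had to come out higher there, so neither the count nor the median supports a shift of the list. Those with the largest differences were AF067061 (5.94 ± 0.32, at least 12.9-fold), Gm4340 (5.91 ± 0.32, at least 15.5-fold), the homeobox gene Obox6 (5.16 ± 0.37, at least 7.77-fold) and Zscan4a (4.81 ± 0.25, at least 9.16-fold), with adjusted p of 2.54e-05, 2.50e-05, 8.43e-05 and 2.04e-05. Counting any probe of the 32 genes, 6 had one above background on all 6 mESC arrays and no other array. On every array 8 had one above background, and 10 had none above background on any. Gm2016 is in the first count and in the second, through different probes. Over all 55681 probes, 174 (0.312%) were above background on the 6 mESC arrays alone and 17478 on every array. In J1 in 2i against J1, 1 of 18 was called lower and 0 higher, where 6.13% and 9.02% of all probes were.

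**Figure D4:**
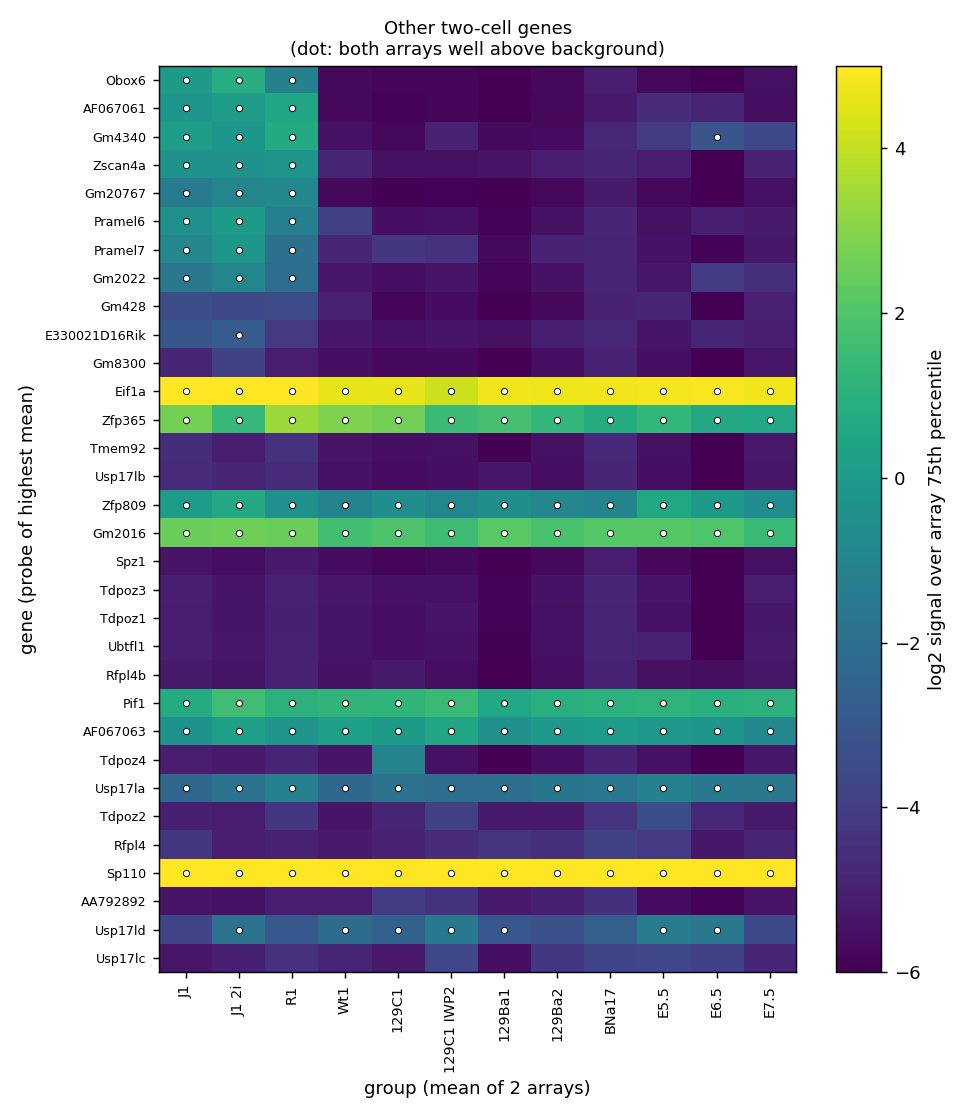
Group means of the 32 other 2-cell genes with a probe, as log2 signal over the array's 75th percentile (colour) by gene (rows, ordered by the mESC mean less the mean of the other groups) and group (columns); a dot marks groups with both arrays well above background. Obox6, AF067061, Gm4340 and Zscan4a lead the rows, and 8 genes carry dots in all 12 groups.

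The regulators that are known to govern the state were taken from a list of 30, all with a probe. In mESC against EpiSC lines 9 of 30 were higher and 0 lower, where 11% and 13.1% of all probes were (median 0.71, against -0.08 over all probes). Those with the largest differences were the naive gene Zfp42 (10.84 ± 1.01, adjusted p = 0.000312), Dppa2 (8.62 ± 0.72, 0.000179) and Dppa4 (7.30 ± 0.28, 6.19e-06), a pair of nuclear proteins known to act upstream of Dux and the 2-cell genes, and Tbx3 (6.60 ± 0.68, 0.000519). Unlike the Zscan4 probes, Dppa2 and Dppa4 were above background on both E5.5 arrays, at group means of 2.82 and 3.16. From E5.5 to E6.5 epiblast, on a shared slide, Dppa2 fell by 4.94 ± 0.63 and Dppa4 fell by 3.59 ± 0.58 on the log2 scale (adjusted p = 0.00035 and 0.00224). In that comparison 4 of 4 mesoderm markers rose (summed level 0.193 to 0.269 times the 75th percentile in E5.5 and 35.1 to 40.3 times in E6.5), as did 2 of 4 endoderm and 2 of 6 extraembryonic ectoderm markers; their part was not tested. Neither Dppa2 nor Dppa4 was above background on the E7.5 arrays. On the E5.5 arrays the Zscan4f probe was not above background, while Zscan4c A_55_P2007017 was so on replicate 1 (-3.16). A link between these regulators and the Zscan4 probes was not tested.

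Genes of arginine and polyamine metabolism beside Arg2 were 18, of which 14 were tested. In mESC against EpiSC lines 3 of 14 were higher and 0 lower, where 11% and 13.1% of all probes were: Nos1 (2.65 ± 0.42, adjusted p = 0.00341), Ass1, which makes argininosuccinate (2.31 ± 0.54, 0.0155), and Agmat (1.09 ± 0.35, 0.0497). Arg2 itself was not called in that comparison.

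The genes whose group means most resembled the Zscan4c probe A_55_P2007017 over 12 groups, among 18943 candidates, were Ptprcap, Pecam1, Rnaseh2a, Acsbg3 and Fry (Pearson r from 0.970 to 0.976). For Arg2 they were Dync1i1, Rgs5, Hoxb8, Six3os1 and Ntrk3 (0.917 to 0.939). A ranking for Zscan4f, chosen after these values were seen, gave Ceacam20, Pdcl2, Spats1, Atp6v0a4 and Timm8a2, each at 0.999. The values share arrays and a background floor, so these r describe likeness of pattern and are given with no p.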

How the data were processed

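Gene expression was measured on 24 Cy3 arrays, 2 in each of 12 groups, and read with Agilent Feature Extraction 10.5.1.1, per the submitters' processing notes. The authors deposited the scanner output of each array, in which the processed signal is a linear intensity, and a series matrix of log2 values, per the file headers. By its values the matrix is scaled to the 75th percentile and centred by probe; each of its columns was matched to its own array (lowest r 0.99997, highest with another array 0.793). Processing steps before these are not given in the sources used here.

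From the files, the log2 processed signal was taken less the array's 75th percentile; probes of the members were named through the accession column and RefSeq. No member spot was flagged as an outlier (0) or saturated (0). A probe entered a fit if some group in it had both of its arrays well above background. limma 3.58.1 in R 4.3.3 was fitted to 24 arrays as 12 groups, and to line means for mESC against EpiSC (2 against 5 lines) and Wnt inhibitor against original protocol (3 against 2); p-values are two-sided and were adjusted over all probes tested. The fits were tested on simulated data of 31570 probes, of which only a small part was changed. Of probes changed by a log2 of 3, 87% were called for mESC against EpiSC lines and 93% for J1 in 2i against J1. For Wnt inhibitor against original-protocol lines 56% were called. Of those changed by a log2 of 1.5, the shares were 31%, 67% and 2%, in the same order. The simulated spread between lines was taken from EpiSC lines alone, so these shares need not hold for the data. The members, lists and tests were chosen with earlier results of these data known. All members are given, and of each other list up to 4 called genes with the largest difference that were above background on all arrays of the higher side, plus the 5 genes most alike; Dppa2 and Dppa4 in the embryo, the replicate gaps and list genes beside them were chosen after their values were seen. The mean signal planned for the normexp alternative was not among the columns, so the median signal was used (offset 50). Alternatives covered the background correction, normalization, the authors' values, filter, probe averaging, variance model, fold minimum, fitted arrays, the replicate block, contrasts within a slide, and leaving out each array or line.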

Additional observations from a re-analysis of the deposited data

How the results depend on the processing

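Of 760 single-probe values of the members under alternatives, 15 lost and 13 gained a call; 31 differed in sign from the reported value, 0 of them in a called result. The 3 Zscan4 calls of mESC against EpiSC lines held under all 30 alternatives run, with differences down to 2.06, 1.70 and 1.18 under normexp background correction. In the fit of line means these 3 probes passed the filter on dim probes through the mESC groups alone, so their holding is no independent support. The count of called probes for E5.5 epiblast against EpiSC lines was 1 with the 75th percentile over probes above background on all arrays, 2 without a fold minimum and 0 to 1 when leaving out each array. For E7.5 ectoderm against E6.5 epiblast it was 0 with normexp background correction, 0 with quantile normalization and 0 to 1 when leaving out an array of those stages. For Wnt inhibitor against original-protocol lines it was 1 with arrays as replicates, 1 with these and the replicate block (added after seeing the data) and 1 within the slide. For IWP2 it was 0 to 1 when leaving out each array. The cause was not tested. Replicate numbers did not pair the arrays: over 66 pairs of groups, deviations of same-numbered arrays correlated at -0.37 to 0.42 (median 0, 21 pairs over 0.1). With the replicate block the counts were 0 for 2i and for R1 against J1, 4 for J1 against E7.5 ectoderm, 3 for E5.5 epiblast against mESC lines, 0 against EpiSC lines, 0 for E6.5 against E5.5, 2 for E7.5 against E6.5, 0 for IWP2 and, with arrays as replicates, 3 for mESC against EpiSC lines. Slide as a random block was not run, since every group lies on 1 slide and the group terms already take up the slide. A lone array left on a side is assumed to vary like the others. The 2 arrays per group limit the precision, and levels under background were not measured.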
